A study of Rattus norvegicus with 15 samples.

Results

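Baseline gene expression was described in 3 kidneys of Dahl salt-sensitive rats (Dahl S), numbered 1 to 3, on each of 3 oligonucleotide array designs called A, B and C. These were 9 of the 15 arrays of the series, taken by the kidney numbers in the sample titles, and all 9 are described as kidneys of 5-week-old Dahl S rats. Dahl S is an inbred rat strain that was selected for becoming hypertensive when fed salt. The labels name no diet, sex, treatment or blood pressure. Of the other 6 arrays, which carry the numbers 4 and 5, those on B and C are described as congenic for chromosome 10. Those on A are described as Dahl S, and their strain was treated as unsettled. These 6 arrays entered no comparison and served only, with the 9, to set the floor and the filter on low signal. The labels do not say whether kidneys 1 to 3 came from separate animals, nor whether a number marks the same kidney on each design, so the spread between them may be technical in part. There is no treated or contrasting group within the 9 arrays.

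As background, the kidney filters plasma in the glomerulus and recovers most of the filtrate along the nephron. The proximal tubule takes back phosphate, amino acids, glucose and filtered protein, and makes glucose and detoxifies metabolites with energy from mitochondrial oxidation of fatty acids. The thick ascending limb absorbs salt without water and secretes uromodulin. The distal convoluted and connecting tubules handle salt and calcium, the principal cells of the collecting duct handle water and sodium, and the intercalated cells acid and base. The sodium pump drives transport in all of these segments.

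Each value is a signal intensity per probe set, a group of short probes for 1 transcript, on a linear scale that the authors had already brought to a common level per array. A gene was represented by its brightest probe set on the design. Probe sets bind with different affinity, so that the orders given here are orders of signal and not of transcript number, and signals were compared within a design only. Spearman correlations between the 3 kidneys, across probe sets, lay between 0.967 and 0.974 on A, between 0.963 and 0.970 on B and between 0.973 and 0.978 on C. All 4 kidney markers used to check the tissue label were well above the filter of 319.5 on A. Umod measured 36635, 38633 and 29721 in kidneys 1, 2 and 3, Atp1b1 42163, 49033 and 43392, Klk1 11341, 13165 and 12031 and Anpep 11538, 11790 and 13086. In these bulk samples, fewer cells of a type and less RNA per cell cannot be told apart.

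On array A, the 20 brightest of 4736 named genes were genes of proximal tubule transport and metabolism, of mitochondrial respiration, of the sodium pump and of the cytoskeleton and ribosome. The brightest was Slc34a1, the sodium-phosphate cotransporter of the proximal brush border, at 54434, 62655 and 48780 in kidneys 1, 2 and 3 (mean 55289.7 ± 6977, SD, n = 3). Gpx3, the glutathione peroxidase that the proximal tubule secretes into plasma, followed at 63383, 55470.5 and 45831. The values of both genes overlapped, and their order differed between kidneys, with Slc34a1 above Gpx3 in kidneys 2 and 3 and below it in kidney 1. Kap, the androgen-regulated kidney protein of proximal tubule cells, measured 37364, 46735 and 31928. Slc3a1, the heavy subunit of the cystine and dibasic amino acid transporter, measured 33861, 34544 and 36965, and its SD of log2 was 0.07. Hao2, a peroxisomal hydroxyacid oxidase, measured 24945, 32312 and 28045. Slc34a1, Kap and Hao2 were highest in kidney 2 and Slc3a1 in kidney 3.

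Genes of the respiratory chain held 6 of these 20 places on A. COX1 and COX3, catalytic core subunits of cytochrome c oxidase encoded by mitochondrial DNA, had means of 41722 and 37837. The nuclear-encoded oxidase subunits Cox8a, Cox4i1 and Cox6a1 had means of 47362, 36254 and 26543. Atp5f1b, the catalytic beta subunit of ATP synthase, measured 28725, 30929 and 32824. Cox4i1 was the steadiest of the 20, at 35524, 35838 and 37399.6 (SD of log2 0.04). Mpc1, a subunit of the carrier that brings pyruvate into mitochondria, also stood among the 20 and was the least steady of them, at 29053, 37835 and 15459 (SD of log2 0.66). Its kidney 3 value was 2.45-fold below that of kidney 2, and no other gene of the 20 had a range of 2-fold.

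The remaining places on A went to transport, secreted, cytoskeletal and ribosomal genes. Atp1b1, the beta subunit of the sodium pump, was the fourth brightest at a mean of 44863 ± 3663 (SD, n = 3). Umod, which encodes uromodulin of the thick ascending limb, was the twelfth at 34996 ± 4676. Tff3, a trefoil peptide secreted by epithelia, measured 46849, 42864 and 37798. Akr7a3, an aldehyde reductase of detoxification, measured 29714, 33569.9 and 31227. Actb and Actg1, the cytoplasmic actins, and Rps29 and Rplp0, ribosomal proteins, completed the list with means between 24995 and 35483. Ribosomal proteins, actins and globins have near-identical copies or relatives in the genome, so that the share of each copy in such a signal is uncertain.

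On array B, the 20 brightest of 4281 named genes were led by hemoglobin and were otherwise mostly mitochondrial and ribosomal. Hba-a1, an alpha chain of adult hemoglobin, measured 91030.2, 75457 and 79064 and was the brightest gene in each kidney. Chchd10, a protein of the mitochondrial intermembrane space, measured 51812, 57189 and 53101. The ribosomal proteins Rpl37a, Rps16, Rplp1, Rps20 and Rpl34 had means between 28237 and 50576. Uqcr10 and Uqcrh of respiratory complex III had means of 31681 and 25082, and Atp5mg of ATP synthase had a mean of 27687. Vdac2, a channel of the outer mitochondrial membrane, had the widest spread of the 20, at 33384, 22393 and 29383, lowest in kidney 2.

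Several bright genes of array B belong to kidney metabolism and transport. Gstt3, a glutathione transferase, measured 39455, 39181 and 38625 and was the steadiest of the 20 (SD of log2 0.02). Nherf1, the PDZ scaffold that holds the phosphate transporter at the brush border, was nearly as steady at 22509, 23009 and 22947. Acy3, an aminoacylase that deacetylates mercapturic acids in proximal tubule, measured 30439, 31082 and 27137. Grhpr, which reduces glyoxylate and so limits oxalate, measured 28760.4, 30281 and 25627. Txn1, the cytosolic thioredoxin, and Psap, the precursor of lysosomal saposins, had means of 33593 and 36478. Tmbim6, an inhibitor of cell death in the endoplasmic reticulum, and Lactb2, a mitochondrial endoribonuclease, had means of 36523 and 21561. Actg1 also stood among the 20 on this design, at a mean of 47777.

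On array C, the brightest of 4713 named genes was Miox, the inositol oxygenase of the proximal tubule, which opens the ring of myo-inositol. It measured 70899, 85966 and 83614 and was the brightest in each kidney. Gclc, the catalytic subunit of the enzyme that limits glutathione synthesis, was second at 46890.4, 51412 and 56102. Atp1b1 was again among the 20, at 35105, 39617 and 41330.1. Sult1c2, a sulfotransferase, measured 32856, 38475 and 29329. The rank of a gene after the first few was less certain, since the genes that were among the 20 brightest in every kidney numbered 15 on A, 18 on B and again 15 on C.

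The mitochondrial genes among the 20 on array C were Cisd1, an iron-sulfur protein of the outer membrane, Atp5mc3 of the ATP synthase ring, Ndufa1 of complex I and Vdac1, the main outer membrane channel. Their means were 33983, 26062, 25099.8 and 24028. Rps18, Rpl28 and Fau, a ubiquitin-like fusion to a ribosomal protein, had means of 40512, 24031 and 31856. The insulin-like growth factor binding proteins Igfbp5 and Igfbp7 measured 26883, 30199.7 and 34725 and 26592, 27754 and 26201. Ndrg1, a stress-responsive protein, had a mean of 25805, and Skp1, a subunit of ubiquitin ligases, one of 26559. The other members of the 20 were Gpr108, Itm2b, Eif5a, Serf2 and Actg1, with means between 26009.7 and 41179.

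**Figure D1:**
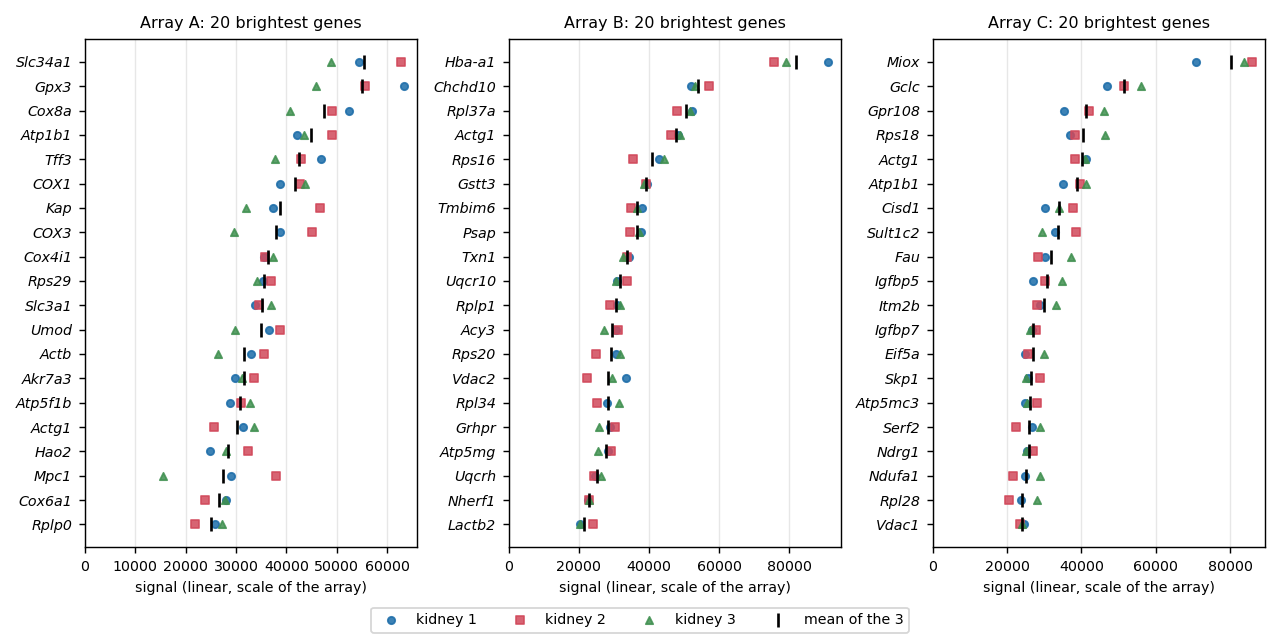
Signal (linear horizontal axis from 0, scale of each array) of the 20 brightest named genes of each design in kidneys 1, 2 and 3, with a black tick at the mean. Values of neighbouring genes overlap in most places, while Hba-a1 on B and Miox on C stand above all others in every kidney, and Mpc1 on A is spread from 15459 to 37835.

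Read as functions, the 100 brightest named genes of array A held 54 members of the 31 lists of marker and function genes, which together name 331 (6.99%) of the 4736 genes of the design. Of the 37 cytosolic ribosome genes on A, 12 were among the 100, as were 11 of 25 genes of oxidative phosphorylation, 10 of 33 of the proximal tubule and 6 of 16 of redox defence. On B, where the lists name only 95 genes, 22 of the 100 were members, among them 8 of 14 ribosomal and 6 of 9 oxidative phosphorylation genes. On C the 100 held 30 members of 125, with 9 of 14 of oxidative phosphorylation, 7 of 16 ribosomal and 4 of 10 proximal tubule genes. The lists were compiled with results of these data known, so these shares describe the signal and were not tested.

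Along the nephron, proximal tubule genes covered a wide range of signal on array A. Of 43 listed genes 33 were on the design and all of these passed the filter, with means from 442 for the brush border dipeptidase Dpep1 to 55289.7 for Slc34a1. Fbp1, the gluconeogenic fructose bisphosphatase, measured 20959, 22528 and 16513. Aqp1, the water channel of proximal tubule and thin limb, measured 17936, 19841 and 18767, and Lrp2, the endocytic receptor megalin, 14114, 16708 and 13948. Acy1, an aminoacylase, was the least steady of the bright proximal genes at 18806, 14958 and 25686. The glucose transporters Slc5a2 and Slc5a1 had means of 1919 and 1567, and the apical sodium-proton exchanger Slc9a3 one of 657. Organic ion transporters of the basolateral side were brighter, with means of 6048 for Slc22a2 and 5268 for Slc22a6.

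On the other designs, proximal genes of glucose production and peptide breakdown were among the bright ones. On B, G6pc1, which releases free glucose, measured 9783, 9718 and 8209, and the bicarbonate cotransporter Slc4a4 measured 6788, 6499.6 and 5455. On C, Pck1, the committed enzyme of gluconeogenesis, measured 23615, 22091 and 23169.8, Napsa, an aspartic protease, 17767, 17014 and 18697, and Ggt1, the brush border gamma-glutamyltransferase, 11684, 12298 and 13191. Of 10 proximal members on C, 7 passed the filter.

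The range between the kidneys reached 2-fold for 192 of 4411 tested probe sets on A (4.35%). The count was 180 of 4385 on B (4.1%), and for C it was 108 of 4420 (2.44%). Of the tested proximal tubule members none did, among 33 on A, 3 on B and 7 on C. The proximal member with the widest range on A was Slc4a4, at 395, 752 and 664 (1.91-fold), where its probe set was dim. The median SD of log2 of the 33 members was 0.18, as was that of all 2736 tested genes of A.

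Thick limb genes were represented on A by Umod, by Kcnj1, the potassium channel that recycles potassium into the lumen, and by Egf, the growth factor precursor. Kcnj1 measured 9778, 9807 and 6120.4 and was lowest in kidney 3, as was Umod. Egf measured 7112, 8352 and 7738. Slc12a1, the furosemide-sensitive cotransporter itself, was much dimmer at 870.4, 1173 and 999.5. On B the claudin Cldn10, which forms paracellular sodium pores, measured 16905, 16676 and 17679, and on C Bsnd, the accessory subunit of chloride channels, 1901, 1909.9 and 1653.

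In the distal convoluted and connecting tubule, Calb1, the cytosolic calcium-binding protein calbindin, measured 10532, 14602 and 13322 on A and 12744, 15132 and 10819 on C. Klk1, the tissue kallikrein secreted by the connecting tubule, measured 11341, 13165 and 12031, and Slc12a3, the thiazide-sensitive cotransporter, 3228, 5038 and 4939. On A, 4 of 5 tested members were lowest in kidney 1 and 4 of 5 highest in kidney 2, where 41.1% and 31.6% of all 2736 tested genes were. The median deviation of the list from the mean of the 3 kidneys was −0.27 on the log2 scale in kidney 1. On B, both tested members, the sodium-calcium exchanger Slc8a1 and the kinase Wnk4, were also lowest in kidney 1. The share of all tested genes of B lowest in kidney 1 was 31.1%. Calb1 on C was lowest in kidney 3.

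Among collecting duct genes on A, Hsd11b2, which protects the mineralocorticoid receptor from glucocorticoids, was the brightest principal cell gene at 7309, 7365 and 8709. The vasopressin-regulated water channel Aqp2 measured 6022, 5434 and 6094, its basolateral partner Aqp3 3731, 4071 and 4695 and the sodium pump regulator Fxyd4 3708, 3649 and 3893. The epithelial sodium channel was dim, with means of 1429.5 for the alpha and 768 for the gamma subunit, and the beta subunit Scnn1b had a mean of 85, close to the floor of 85.1. Of the intercalated cell genes, the carbonic anhydrase Car2 measured 4619, 6343 and 6137 and the anion exchanger Slc4a1 1438, 1997 and 1769. All 3 tested intercalated members on A, the third being the proton pump subunit Atp6v1g3, were lowest in kidney 1 and highest in kidney 2. Over all tested genes of A, 41.1% were lowest in kidney 1 and 31.6% highest in kidney 2. On B the order was not repeated, with Slc4a1 at 7806, 8366 and 7768, the chloride-bicarbonate exchanger Slc26a4 at 3924, 3926 and 4528 and the ammonia channel Rhcg at 2857, 2172 and 3079.

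**Figure D2:**
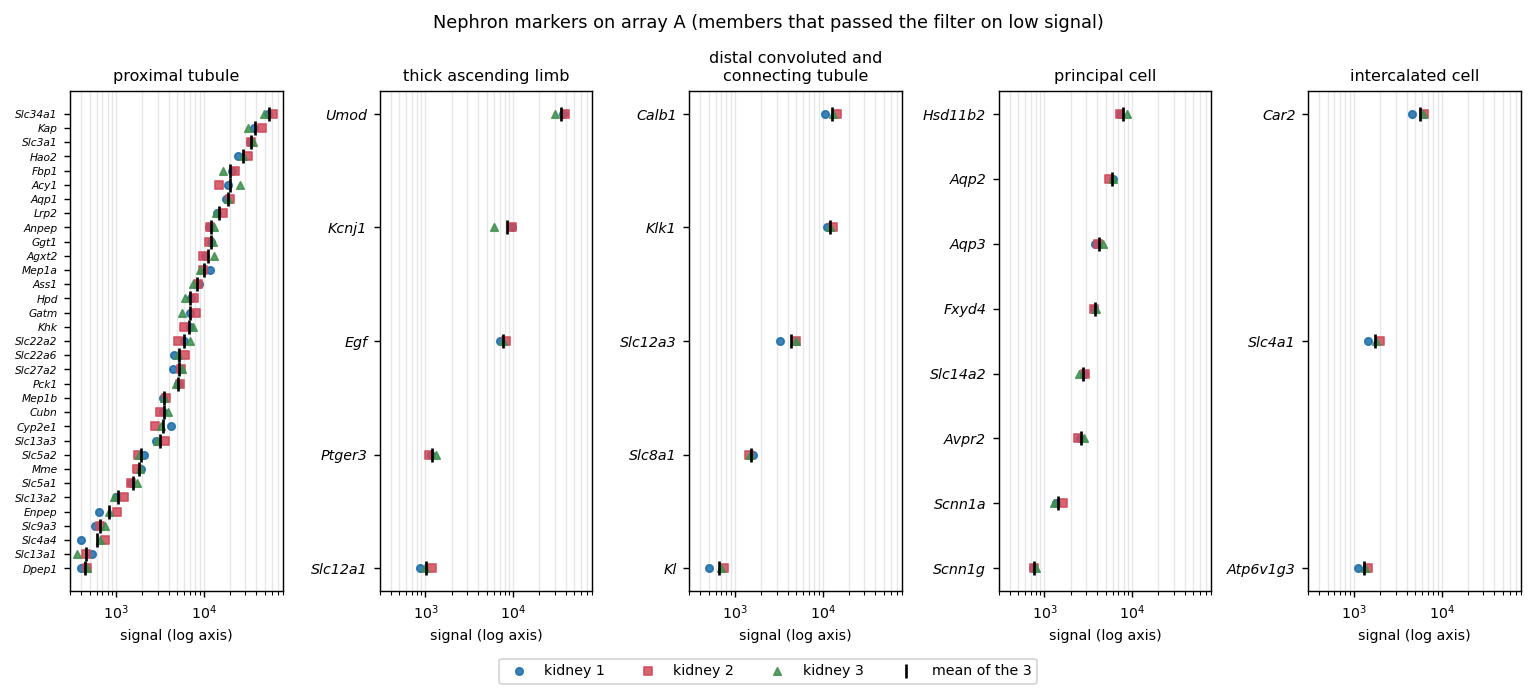
Signal (log axis) of the nephron markers of array A that passed the filter on low signal, one panel per segment, in kidneys 1, 2 and 3 with a black tick at the mean. The proximal tubule panel spans the range from Dpep1 to Slc34a1, and the values of the 3 kidneys of each gene lie close together beside the differences between genes.

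Cell types other than tubule were also measured. Matrix genes were among the bright ones, with the matrix protein Sparc at 16766, 18570.2 and 18078 on A, the basement membrane collagen Col4a1 at 20640.3, 17197 and 16879 on B and the fibrillar collagen Col1a2 at 17428, 12834 and 14057 on C. Of the smooth muscle genes on A, Myl9, a myosin light chain, measured 6201, 4378 and 5034 and Acta2, smooth muscle actin, 4004, 3102 and 3097. Of the endothelial genes, means were 919 for Pecam1 and 743 for the VEGF receptor Flt1 on A and 3083 for the sialomucin Emcn on C. Of the podocyte genes, Podxl, the glycocalyx protein podocalyxin, measured 2469, 2551 and 3010.4 on B, while the transcription factor Wt1 was below the filter on A and B.

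Markers of neighbouring organs were mostly dim on A. Of the genes on the design, 2 of 6 adrenal, 2 of 7 fat, 0 of 6 skeletal muscle and 4 of 9 liver members passed the filter. Those that passed were the adrenal medulla enzymes Th and Pnmt, with means of 508 and 449, the lipase Lpl and leptin (Lep) of the fat list, and the liver genes Fga, Ttr, Serpina1 and Cps1. Lpl had a mean of 1009, and the 4 liver genes had means between 403 and 711. Albumin (Alb) had a mean of 163 on A and of 36.5 on C, where the floor was 153.6. The adrenal genes Star and Cyp11b2 had means of 35.9 and 66.8 on A, below its floor of 85.1, the value to which low signals were raised. The muscle genes Tnni2 and Ckm had means of 14.9 and 321, and the fat droplet gene Plin1 one of 28.7. By far the brightest of these on A was the probe set annotated as Lep, the fat cell hormone, at 6334, 5679 and 4088, while Fabp4 of the same list had a mean of 224. On C the fat hormone gene Adipoq passed the filter at a mean of 534, and the probe set annotated as Myh4, a fast muscle myosin, measured 2491, 2654 and 2083, and that of the same gene on A had a mean of 122. No gene of the sex-linked list was among the named genes of the designs.

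Promoter sequences are shown for 4 proximal tubule genes of this set, the brightest ones with an HNF1 half-site and the marker Anpep, and for Umod as a gene of another segment. HNF1 factors are transcription factors of the proximal tubule and other epithelia. The searched motifs were the HNF1 half-site GTTAAT on both strands (ATTAAC on the other strand) and the TATA box TATAAA on the strand of the gene, in the 250 bases before the annotated start. The sequences are from RefSeq for assembly GRCr8, 5′ to 3′ on the strand of the gene, 150 bases up to the base before the start, with matches in capitals. They lie at chr17:9238984-9239133 on the minus strand for Slc34a1, chr7:122284510-122284659 on the plus strand for Miox, chr4:168409033-168409182 on the minus strand for Kap, chr1:143195102-143195251 on the minus strand for Anpep and chr1:183261017-183261166 on the minus strand for Umod.
Slc34a1: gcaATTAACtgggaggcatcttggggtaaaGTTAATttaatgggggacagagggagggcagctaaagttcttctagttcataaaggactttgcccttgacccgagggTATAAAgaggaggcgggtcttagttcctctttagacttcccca
Miox: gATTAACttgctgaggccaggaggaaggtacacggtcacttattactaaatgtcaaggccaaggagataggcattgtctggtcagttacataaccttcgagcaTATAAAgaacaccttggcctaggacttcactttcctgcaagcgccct
Kap: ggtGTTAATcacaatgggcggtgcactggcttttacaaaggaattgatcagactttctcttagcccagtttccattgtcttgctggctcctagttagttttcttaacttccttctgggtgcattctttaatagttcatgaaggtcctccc
Anpep: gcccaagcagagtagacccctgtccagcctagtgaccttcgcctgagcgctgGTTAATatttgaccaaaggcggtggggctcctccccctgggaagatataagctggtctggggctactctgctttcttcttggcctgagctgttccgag
Umod: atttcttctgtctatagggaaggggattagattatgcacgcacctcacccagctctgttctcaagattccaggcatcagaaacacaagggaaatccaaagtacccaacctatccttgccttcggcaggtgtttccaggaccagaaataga

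Slc34a1 held half-sites that began 147 and 120 bases before the start and a TATA box at 43 bases. Miox held a half-site at 149 and a TATA box at 47 bases, Kap a half-site at 147 bases and Anpep one at 98 bases. Umod held neither in this stretch, and a TATA box match farther upstream. A half-site was present in 9 of 38 proximal tubule genes with a promoter entry (23.7%), in 4 of 62 ribosomal genes (6.45%), in 0 of 38 oxidative phosphorylation genes and in 3 of 33 genes of the thick limb to the collecting duct (9.09%). Of all 27457 promoters 1775 held one (6.46%). The TATA box was present in 7 of 38 (18.4%), 5 of 62 (8.06%), 0 of 38 and 5 of 33 (15.2%) of these lists and in 8.38% of all promoters. Among the genes of the 20 brightest of the designs, 45 of 57 had an entry, of which 5 held a half-site and 10 a TATA box. The matches describe the letters in these windows and were not tested.

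The spread between the 3 kidneys was smaller at high signal on every design. On A, 9.88% of the probe sets in the dimmest of 4 equal parts of those tested had a range of at least 2-fold, against 2.36% in the brightest part. The part next to the brightest on A had 1.72%. On B the shares were 8.57% and 1.37%, and on C 4.52% and 0.995%. Among the 100 brightest named genes, 4 on A, 1 on B and 0 on C reached 2-fold. Of all tested probe sets 4.35%, 4.1% and 2.44% did, so the count on A was near that share. The median SD of log2 over all tested probe sets was 0.19 on A, 0.16 on B and 0.16 on C. Kidney 3 was the lowest for 93 of the 192 probe sets with a 2-fold range on A, for 74 of 180 on B and for 67 of 108 on C. Over all tested genes, 28.5%, 29.2% and 31.5% were lowest in kidney 3. On C, 28 of the 67 came from a run of 340 probe sets described below. Kidney 2 was the highest for 64 of 108 on C, where 31.6% of all tested genes were. Without kidney 3, the counts were 69, 84 and 37, without kidney 2 they were 102, 83 and 45, and without kidney 1 they were 102, 103 and 77, though a range over fewer kidneys is smaller by construction. The ratio of control probe signal at the 3′ end to that at the 5′ end is higher in less intact RNA. The hexokinase controls had their lowest ratio in kidney 3 on every design, at 2.06, 2.36 and 2.82. The ratios of the beta-actin controls were also lowest there, at 1.42, 1.23 and 1.38. Those of the GAPDH controls were not, at 1.07, 1.14 and 1.11, the highest of the 3 kidneys on A and C. The part of RNA integrity in the differences between the kidneys was not tested.

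**Figure D3:**
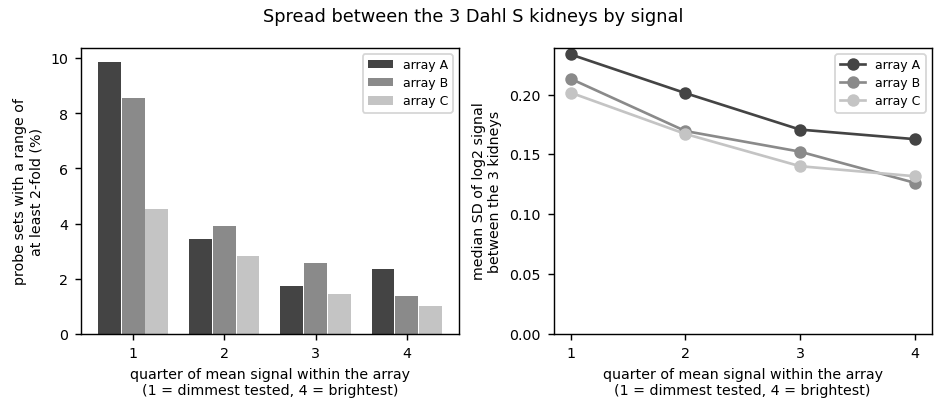
Left, share of tested probe sets (%) whose highest kidney was at least 2-fold above the lowest, by mean signal in 4 equal parts of each array design. Right, the median SD of log2 signal between the 3 kidneys in the same parts, which was 0.23 in the dimmest and 0.16 in the brightest on A, 0.21 and 0.13 on B, and 0.20 and 0.13 for C.

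The genes with the largest SD of log2 between the 3 kidneys were mostly dim. On A the 12 had means between 309 and 705. Eef1a1, translation elongation factor 1 alpha, led with 980.4, 110.4 and 892 on 1 of its probe sets (SD of log2 1.78). Its other probe set measured 8731, 10590.1 and 8987, so that the gene's brighter signal did not share the low value of kidney 2. Nos2, the inducible nitric oxide synthase, measured 626, 492 and 118, and its other probe sets 374, 548 and 431 and 379, 405 and 459. Hnf4a, a nuclear receptor of proximal tubule and liver, measured 474, 713 and 101 on its variable probe set, with kidney 2 highest and kidney 3 lowest. Another Hnf4a probe set of A, from the same source sequence, had the same order at 1310, 1522 and 1069, a range of 1.42-fold. The third, at 981, 1428.4 and 1287.6, was lowest in kidney 1. On C, the dimmer Hnf4a probe set had the same order at 972, 1509 and 749. The brighter Hnf4a probe set of C, at 12953, 11851 and 12645, did not.

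The other 9 genes of A were the fatty acid transferase Cpt1b, the glutamate receptor Grin2a, the bile acid enzyme Hsd3b7, the sorting adaptor Pacs1, the neurotrophin receptor Ntrk3, the kinase Mapk7, the calcium channel Cacna1b, caveolin Cav1 and the ubiquitin ligase Rnf157. Mapk7 measured 1158, 603 and 188, and its second probe set, from the same source sequence, 442, 440 and 138. Both were highest in kidney 1, by little on the second, and lowest in kidney 3. Of the 9 other probe sets of these 12 genes on A, that of Mapk7 was the 1 with a 2-fold range, and 2 had the same highest and lowest kidney. Over all genes such agreement was not counted, so these counts, here and below, describe the named genes only.

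On B the most variable genes were Pip4k2a, a phosphoinositide kinase, at 754, 166 and 901, Vamp5, a vesicle fusion protein, at 1446, 349 and 1482, and Ceacam12, a cell adhesion molecule, at 1345, 346 and 1514. These 3 were lowest in kidney 2, with 7 of the 12 in all, where 39.7% of all tested genes of B were. The other probe set of Vamp5 on B, from the same source sequence, measured 5089, 3006 and 4118. It was lowest in kidney 2 as well, and so were both Vamp5 probe sets on A, but not the 1 on C. Ap5s1, Rbms3, Sh3glb1, Tspan15, Tfe3, Ubtd2, Fgfr2, Epc1 and Trim5 completed the 12, with SDs of log2 between 1.01 and 1.14. Fgfr2, a receptor of fibroblast growth factors, measured 631, 1127 and 262, and its probe set on A, at 415, 552 and 398, was also highest in kidney 2 and lowest in kidney 3. Other probe sets went the other way. The other probe set of Epc1 on B, at 611, 668 and 269, was lowest in kidney 3, where the named one was highest. Both other probe sets of Ubtd2 on B, at 568, 640 and 417 and at 474.5, 666 and 383, had neither the same highest nor the same lowest kidney. Of the 5 other probe sets of the 12 genes on B, 1 had the same highest and lowest kidney, as had 3 of the 6 on A and C.

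On C the list was led by Pam, which amidates peptide hormones, at 1738, 3802 and 878 (SD of log2 1.06). The 5 other Pam probe sets of the design had ranges of at most 1.35-fold, and 2 of them had the same highest and lowest kidney. Clec4a3, a lectin receptor of myeloid cells, measured 1113, 263 and 451, highest in kidney 1. Hdlbp, an RNA-binding protein, measured 689.9, 1120.3 and 2691, while its probe sets on A and B had ranges of at most 1.31-fold. Ubac1, Agk, Ggct, Mypop, Kgd4, Lnpep, Naca, Lrba and Chac1 completed the 12. Chac1, which degrades glutathione, measured 322, 916 and 627.

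Because dim probe sets filled these places, the SD was also ranked among probe sets whose mean reached the 75th percentile of all values of the design, a limit added after the data had been seen. On A this put first Ugt2b35, a glucuronosyltransferase, at 4102, 6185 and 1715 (SD of log2 0.95). Clu, the secreted chaperone clusterin, followed at 10040.4, 2976 and 4605, highest in kidney 1. Cat, the peroxisomal catalase, measured 5225, 8513 and 3246, and a second probe set 4969, 8328 and 5108. Both catalase probe sets were highest in kidney 2.

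Several metabolic genes of this set on A were lowest in kidney 3. Mpc1 is described above, and its probe set on C measured 13397, 16441 and 13984, which was highest in kidney 2 with a range of 1.23-fold. Cyp2c23, an arachidonic acid epoxygenase of the kidney, measured 29109.7, 30799 and 13966, and a second probe set 15939.9, 16872 and 12818. Cox7a2l, an assembly factor of respiratory supercomplexes, measured 3571, 2783 and 1571, and a second probe set 3226, 2948 and 1796. For Cyp2c23 and Cox7a2l both probe sets had the same highest and lowest kidney. Acot7 and Ndufab1 were also among the 12 and lowest in kidney 3, and their other probe sets had ranges of at most 1.36-fold. Adh5, at 2091, 983.5 and 2499, and Slc35a1, at 687, 961 and 1588, were among the 12 too but highest in kidney 3.

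The last genes of the set on A had a second probe set with the same order. Apoe, the lipid carrier apolipoprotein E, measured 3283, 1416 and 2158, and a second probe set 9110.4, 5454 and 6528, both highest in kidney 1 and lowest in kidney 2. Prdx3, a mitochondrial peroxiredoxin, measured 2217, 2452 and 4799, and a second probe set 4762, 4934 and 6541. Both Prdx3 probe sets come from the same source sequence and were highest in kidney 3. Of the 8 other probe sets of the 12 genes on A, 4 had the same highest and lowest kidney and none reached a range of 2-fold. As above, such agreement was not counted over all genes.

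On B the brighter variable genes were led by Cmbl, a hydrolase, at 12335, 10968 and 3677 (SD of log2 0.96), and Tnfaip1, an adaptor of ubiquitin ligases, at 1463, 1671 and 529. Both were lowest in kidney 3, as were Mmut, the methylmalonyl-CoA mutase, and Hipk1, Irak1 and Hars1. Trappc6a, a vesicle tethering subunit, measured 3787, 1374 and 4080 and was lowest in kidney 2, as were Lrfn4, Pxn, Kctd15 and Aph1a. Slirp, a binder of mitochondrial RNA, measured 814, 1724 and 2087. None of the 3 other probe sets on B and none of the 7 on A and C of these genes reached 2-fold, and none had both the same highest and the same lowest kidney.

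On C, 9 of the 12 brighter variable genes were lowest in kidney 3, where 31.5% of all tested genes were. Mmp14, a membrane metalloproteinase, measured 4243, 3303 and 1683, and its probe set on A, at 2326, 2161 and 1693, had the same order. Kgd4, a subunit of the oxoglutarate dehydrogenase complex, measured 3429, 2909 and 1223, and Gpc4, a cell surface proteoglycan, 5277, 5828 and 2792. Plcd3, a phospholipase C, measured 759, 1554 and 1804, and its probe set on B, at 295.6, 701 and 633, was lowest in kidney 1 as well. Of the 9 other probe sets of the 12 genes on C, 3 had the same highest and lowest kidney, as had 3 of the 9 on A and B. Col1a2 measured 11845, 6593 and 14192 on this probe set, lowest in kidney 2. Phf23, Kpna4, Igsf11, Snx9, Ppp4r2, Rad23b and Pam completed the 12. Of these 12, 7 came from a run of 340 probe sets of array C whose source sequences have neighbouring database numbers, noticed after the values were seen. In that run 32 probe sets (9.41%) had a 2-fold range and 28 of these were lowest in kidney 3, against 76 of the other 4080 (1.86%) with 39 lowest in kidney 3. Kgd4, Phf23, Mmp14, Kpna4, Igsf11, Snx9 and Gpc4 were the 7 genes of that run, and all 7 were lowest in kidney 3.

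**Figure D4:**
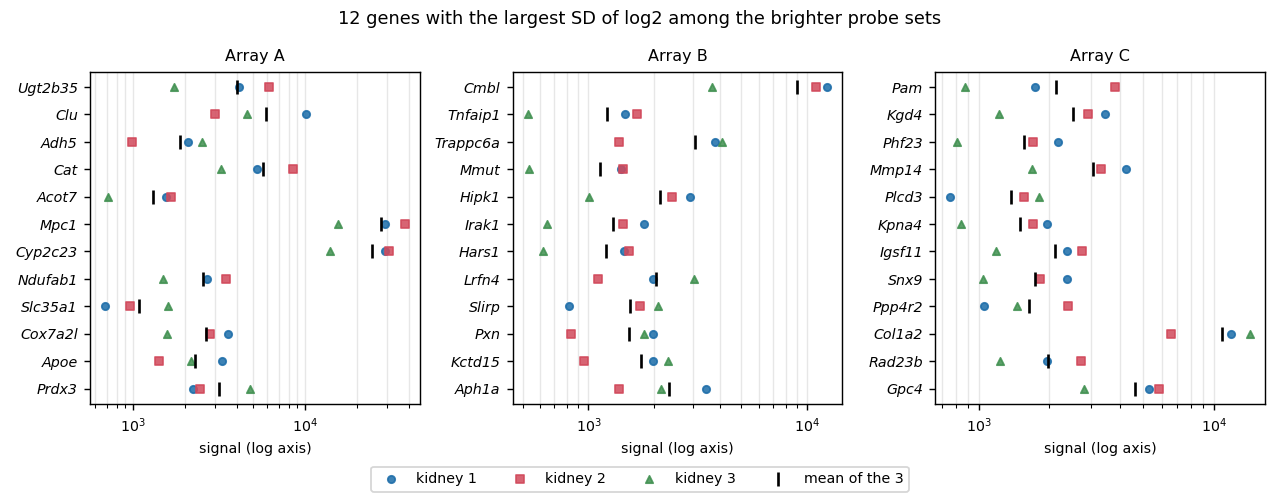
Signal (log axis) of the 12 genes of each design with the largest SD of log2 among probe sets with a mean at or above the 75th percentile, in kidneys 1, 2 and 3 with a black tick at the mean. Kidney 3 (triangle) lies lowest for 7 genes on A, 6 on B and 9 on C, where 28.5%, 29.2% and 31.5% of all tested genes were lowest. The 9 on C include the 7 genes of the run of 340 probe sets described in the text.

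Read by list, most leukocyte genes had the same highest and lowest kidney on the 3 designs. On A, 4 of 5 tested members were lowest in kidney 2, on B 3 of 3 and on C 4 of 5, where 30.4%, 39.7% and 37.3% of all tested genes were. They were highest in kidney 1 in 4 of 5, 3 of 3 and 4 of 5 cases, where 24.3%, 32.2% and 29.7% of all tested genes were. The median deviation from the mean of the 3 kidneys was 0.28, −0.27 and −0.01 in kidneys 1, 2 and 3 on A, 0.28, −0.33 and 0.04 on B, and 0.23, −0.27 and 0.04 on C, on the log2 scale. Over all tested genes these medians lay between −0.04 and 0.04.

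Lyz2, the lysozyme of macrophages and granulocytes, measured 6380, 3072 and 5320.1 on A. Coro1a, an actin regulator of blood cells, measured 741, 294 and 337. Lyz2 and Coro1a were the 2 of 5 tested leukocyte members of A with a 2-fold range, as had 4.35% of all tested probe sets of A. Laptm5, a lysosomal protein of blood cells, measured 2967, 1515 and 2776 on B and 902, 451 and 803 on C. C1qa, a chain of complement C1q made by macrophages, measured 2758, 1809 and 2334 on B, and Cd68, a macrophage lysosomal protein, 2299, 1628 and 2023 on C. For each of these genes kidney 1 was the highest and kidney 2 the lowest. C1qc did not repeat on A what it showed on C, with 828, 845 and 925 on A and 1322, 765 and 858 on C. The T cell gene Cd3e was lowest in kidney 3 on C, at 922, 862 and 782. Ptprc, the leukocyte common antigen, had means of 93.2 on A and 130.0 on C, near or below the floor.

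Genes of antigen presentation and interferon response were lowest in kidney 2 in 8 of 13 cases on A. The same held for 4 of 5 on B and for 7 of 10 on C, and in none of the 3 designs was a tested member lowest in kidney 1. Over all tested genes, 30.4%, 39.7% and 37.3% were lowest in kidney 2, and 41.1%, 31.1% and 31.2% in kidney 1, on A, B and C. Cd74, the class II invariant chain, is a member of this and of the leukocyte list, and it measured 8809, 6554 and 6843 on A and 3876, 3796 and 5703 on C, highest in kidney 3 there. The class II gene RT1-Ba measured 5627, 4224 and 3416 on A and 2287, 1498 and 1316 on C, lowest in kidney 3 on both. RT1-Db1 measured 3525, 2197 and 1914 on A, and its probe set on C measured 12945, 11638 and 12642. RT1-Da measured 6583, 6554 and 9722 on A, with kidney 3 the highest. B2m, the light chain of class I molecules, differed little on A, at 8615, 8222 and 8431. RT1 genes are close relatives, so that their signals may be mixed.

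Red blood cell genes had the same order in most cases. All 4 tested members on A and both on B were highest in kidney 1, and all but 1 were lowest in kidney 2. Over all tested genes, 24.3% on A and 32.2% on B were highest in kidney 1, and 30.4% and 39.7% lowest in kidney 2. Hbb, a beta chain of hemoglobin, measured 21781, 14454 and 21260.3 on A, and Hbb-bs, another, 15433, 8448 and 14916 on B. Alas2, the erythroid enzyme of heme synthesis, measured 1595, 1354 and 1321 and was lowest in kidney 3. With quantile normalization, 3 of the 4 on A stayed highest in kidney 1. The summed signal of the blood list was 34956, 24235 and 33142 on A and 106463, 83905 and 93980.5 on B, and of the leukocyte list 18333, 11846 and 14749 on A.

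Matrix and smooth muscle genes of A also leaned this way. The median deviation of 6 tested matrix members was 0.23 in kidney 1 and −0.25 in kidney 2. That of 4 tested smooth muscle members was 0.26 and −0.16. Of the matrix members 4 of 6 were lowest in kidney 2, where 30.4% of all tested genes were. Of the smooth muscle members 3 of 4 were highest in kidney 1, where 24.3% of all tested genes were. On C the matrix medians were −0.06, −0.11 and 0.07 in kidneys 1, 2 and 3. There, 4 of 6 matrix members were highest in kidney 3, where 38.7% of all tested genes were. Kidneys 1 and 2 were each lowest for 3 of 6, where 31.2% and 37.3% of all tested genes were. The medians of the 2 tested smooth muscle members of C were 0.09, −0.09 and 0.01. Of these, Tagln was highest in kidney 1 and Acta2 in kidney 3.

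Injury genes on A were highest in kidney 1 in 10 of 11 tested cases, where 24.3% of all tested genes were. The other, Krt19, was highest in kidney 3, at 927.5, 787 and 968. Of the 11, 3 had a 2-fold range (Clu, Spp1 and A2m), as had 4.35% of all tested probe sets of A. Spp1, the secreted phosphoprotein osteopontin, measured 18427, 12077 and 8199. A2m, the protease inhibitor alpha-2-macroglobulin, measured 2083, 1017 and 471. Timp1, a metalloproteinase inhibitor, measured 2288, 1688 and 1599 on A but 1753, 2179 and 3086 on C, where the order was the opposite. Havcr1, the kidney injury molecule, measured 426, 141 and 380.2 and Lcn2, the lipocalin released by injured tubules, 565, 318 and 494, the former below the filter. Also below the filter, Fgg measured 212, 265.5 and 370 and Cdkn1a 178, 222 and 236, both lowest in kidney 1. Fgb, at 130, 100 and 107, was highest there. The part of blood, leukocyte, matrix and smooth muscle cells in the values of the injury and other lists was not tested.

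Ribosomal protein genes were lowest in kidney 2 in 22 of 36 cases on A, in 9 of 11 cases on B and in 9 of 13 cases on C. Of all tested genes, 30.4%, 39.7% and 37.3% were lowest in kidney 2. The ribosomal genes were highest in kidney 3 in 24 of 36, 7 of 11 and 10 of 13 cases, where 44.2%, 34.5% and 38.7% of all tested genes were. With median scaling they were highest there in 16 of 36 cases on A. The median deviation in kidney 2 was −0.12, −0.16 and −0.14 on the 3 designs. Rpl3, a protein of the large subunit, measured 11782, 8828 and 14049 on A, Rpl6 20992, 15629.5 and 21951 on B and Rpl11 21673, 13035 and 17436 on C. Oxidative phosphorylation genes had smaller medians, within −0.08 and 0.04 in each kidney of each design. On A, 15 of 25 were lowest in kidney 3 and 11 of 25 highest in kidney 1, where 28.5% and 24.3% of all tested genes were. On B, 5 of 8 were lowest in kidney 2, and on C 6 of 14, where 39.7% and 37.3% of all tested genes were. Of the 25 members on A, 1 had a 2-fold range, as had 4.35% of all tested probe sets of A. That member was Cox5a, whose probe set was dim, at 269.8, 173 and 433. The median SD of log2 of the oxidative phosphorylation members was 0.12 on A, 0.07 on B and 0.09 on C. That of all tested genes was 0.18, 0.15 and 0.15. In the brightest of 4 equal parts of the tested probe sets it was 0.16, 0.13 and 0.13.

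**Figure D5:**
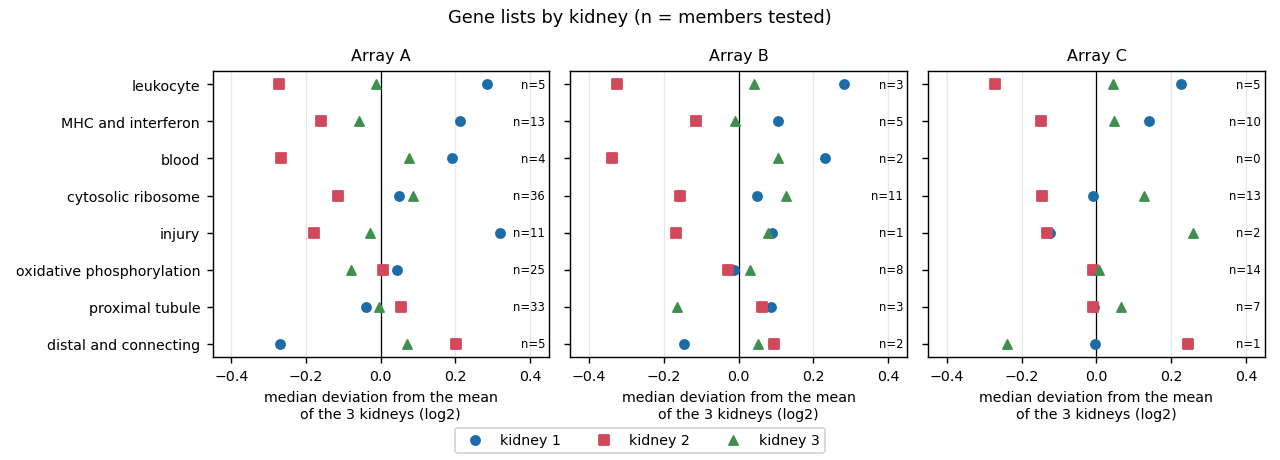
Median deviation (log2) of the tested members of 8 gene lists from the mean of the 3 kidneys, per kidney and array design, with the number of members tested. Kidney 2 (square) lies lowest for leukocyte, MHC and interferon, blood and ribosomal genes on every design that has members, and oxidative phosphorylation and proximal tubule genes lie nearer to 0 on A and C.

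To ask whether single genes differed between the numbered kidneys beyond the disagreement of probes and arrays, the 1222 genes tested on at least 2 designs (86 of them on all 3) were examined with a moderated F test built on limma's variance shrinkage. No gene passed a Benjamini-Hochberg adjusted p of 0.05 (0% called), and 62 genes (5.07%) had an unadjusted p under 0.05. The smallest adjusted p was 0.379, for Plcd3. The deviations of arrays with the same number correlated between designs at −0.00 to 0.17 across genes, with a median of 0.08, and those of different numbers at −0.14 to 0.09. The median over different numbers was −0.04. Of the 9 same-number correlations 3 were over 0.1. Probe sets of the same gene on the same design agreed little more, at 0.05 to 0.24, with 5 of 9 over 0.1. With so little agreement on 1 array, these values cannot settle whether the numbers mark the same kidneys. The test depends on that assumption, which the labels do not settle. Without kidney 1 the test called 3 genes (Fgfr2, Cav1 and Fcgrt), without kidney 3 it called 7 (Plcd3, Atxn7l3b, Laptm5, Alas1, Spink1, Aph1a and Vasn), and without kidney 2 it called 0. These calls rest on only 2 kidneys and few values per gene, and none of these genes was called with all 3 kidneys. They are given as a check on the settings and not as differences between the kidneys.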

How the data were processed

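The deposited files hold a linear signal intensity per probe set. Which software made the values, and by which steps, is not given in the sources used here. By their deposited values, the authors' arrays had each been scaled already (trimmed mean without the outer 2% of values 1000.6 to 1001.3), and no other scaling was applied. Background subtraction is unknown, and 3 arrays per design limit the precision.

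Within each design, signals below the 25th percentile of its 5 arrays were set to that floor (85.1 on A, 140.1 on B, 153.6 on C) and taken to log2 where an SD, range or test was computed. Tested were probe sets with a 5-array mean at or above the design's median signal (319.5, 485.8 and 510.3), without the 59 control probe sets, which left 4411 of 8799, 4385 of 8791 and 4420 of 8789. Symbols came from the platform annotation, updated by gene identifier to RefSeq for GRCr8. Of the probe sets, 7006, 5351 and 5821 had 1 symbol, 308, 38 and 45 several and 1426, 3343 and 2864 none. The last 2 kinds were not named. Identifiers matched for 6985, 5333 and 5804.

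Named were the 20 brightest genes of a design, the 12 with the largest SD of log2 and no kidney at the floor, and in each of the 31 lists up to 3 by signal and up to 3 by SD. Some further members and the genes above the 75th percentile were named after their values had been seen. The kidneys and lists were chosen with earlier results of these data known. The moderated F test used squeezeVar of limma 3.58.1 in R 4.3.3, with values centred within each design and Benjamini-Hochberg adjustment. The test was checked on simulated data. Other computations used Python 3.11.15 with pandas 2.3.3.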

Additional observations from a re-analysis of the deposited data

How the results depend on the processing

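No paired analysis was possible because no 2 groups were compared. The count of probe sets with a 2-fold range was 654 on A, 610 on B and 328 on C without a filter on low values, and 44, 42 and 27 when filtered at the 75th percentile, where fewer probe sets were tested. Leaving out each kidney in turn gave between 69 and 102 on A, between 83 and 103 on B and between 37 and 77 on C. Quantile normalization, median scaling, other floors, or a floor and filter from the Dahl S arrays alone kept each count within 1.5 times. The F test called 0 genes under those settings and both filters, and with the mean of all probe sets of a gene, and 0 to 7 with 1 kidney left out. Its smallest adjusted p was 0.31 to 0.802 with all kidneys. The 20 brightest genes kept at least 18 members under every scaling, ranking and kidney left out. The SD of log2 of named genes moved by over 1.5 times for 22 with median scaling, 23 with quantile normalization, and 18, 48 and 58 without kidney 1, 2 or 3, where it rests on fewer samples.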

Other observations

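Genes that respond to handling, time of day or feeding are given here as a description. Of the immediate early genes on A, which respond within minutes to stress, Jun measured 1686, 1669 and 1681 and Fos 1695, 1586 and 1224. Of the 14 tested, 1 had a range of 2-fold (Nr4a3, at 243, 344 and 509), as had 4.35% of all tested probe sets of A. Of the clock genes, Bmal1 measured 537, 499 and 326 on A and Npas2 462, 884 and 792 on B, while Tef measured 1107, 1132 and 1434 on A and 1513, 1485 and 1888 on B, highest in kidney 3 on both. Fatty acid oxidation genes had a median SD of log2 of 0.13 over 17 tested members on A, against 0.18 for all tested genes. These genes were bright, with a median signal of 3045. In the brightest of 4 equal parts of the tested probe sets of A, the median SD was 0.16. On B and on C, where 2 members were tested, it was 0.11 and 0.21 for the list and 0.15 for all tested genes of each design. Acadm, the medium-chain dehydrogenase, measured 8022, 8497 and 8442, and Hadha of the trifunctional protein 8311, 7980 and 8107. Of the heat shock genes, Hspd1, the mitochondrial chaperonin, measured 16948, 17751 and 17442.

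The kidneys of these young rats also carried signal for dividing cells. Mki67, a marker of cycling cells, measured 1819, 1508 and 1678 on B, and Top2a, a topoisomerase of dividing cells, 1316, 1224 and 1219 on A. Mcm2, a replication helicase subunit, measured 2372, 2182 and 2422 on C. Ccnd1, the G1 cyclin, measured 6106, 7034 and 4480.4 on A and 5910.2, 6320.3 and 5509.5 on B, highest in kidney 2 and lowest in kidney 3 on both. Rrm2, a subunit of ribonucleotide reductase, measured 911, 1703 and 895 on B. On B, 5 of 6 tested cell cycle members were lowest in kidney 3, where 29.2% of all tested genes were. On A 5 of 9 were lowest in kidney 3, where 28.5% of all tested genes were. On C both tested members, Mcm2 and Ube2c, were highest in kidney 3 and lowest in kidney 2. Of all tested genes of C, 38.7% were highest in kidney 3 and 37.3% lowest in kidney 2. Of the sterol and fatty acid synthesis genes, Scd2, a desaturase also chosen after its values were seen, was highest in kidney 3 on each design, at 1814, 1840.3 and 2167, 2626, 2487 and 3064 and 4384, 4167 and 5063 on A, B and C. Hnrnpc, an RNA-binding protein named after its values were seen, was lowest in kidney 2 on each design, at 1871, 1449 and 2126, at 4005, 2878 and 4049 and at 4285, 2602 and 3440, with an adjusted p of 0.753 by the moderated F test built on limma.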
